A study of Ovis aries with 12 samples.

Results

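The serotonin receptors described here are the 10 genes HTR1A, HTR1B, HTR1D, HTR2A, HTR2C, HTR3A, HTR4, HTR5A, HTR6 and HTR7, taken by gene symbol from a table of 33609 genes. All 10 were found and all 10 were among the 17806 genes with counts high enough to be tested. HTR1D reached that level through its ventral libraries, since it had between 2 and 7 counts in each dorsal library. A gene kept in this way has to be lower in dorsal tissue, so its call is given apart from those of the other receptors. Other genes of this family in the table, HTR1E, HTR1F, HTR2B and HTR3B, are given beside them.

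RNA was sequenced from the hippocampus of adult ewes of the Ile-de-France sheep breed. The groups were dorsal hippocampus of ewes under chronic stress, dorsal hippocampus of control ewes, ventral hippocampus of ewes under chronic stress and ventral hippocampus of control ewes. Each group held 3 libraries made from mixed RNA of 2 ewes each, and the same 12 ewes, 6 in each condition, gave both regions. How the ewes were stressed is not given in the sources used here, and the dorsal libraries also carry the name DG, which the series record uses for dorsal.

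Serotonin reaches the hippocampus along fibres from the raphe nuclei of the brainstem, whose cell bodies are not part of this tissue. Its receptors fall into families that differ in what they couple to. HTR1A, HTR1B, HTR1D and HTR5A act through inhibitory G proteins that lower cyclic AMP, HTR2A and HTR2C activate phospholipase C, and HTR4, HTR6 and HTR7 raise cyclic AMP. HTR3A is the exception, a subunit of a cation channel that opens when serotonin binds. In rodents, HTR1A is the best known receptor of hippocampal pyramidal cells and HTR3A that of a set of interneurons.

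Library totals ranged from 12254743 to 53775720 gene counts, and levels are given as counts per 1000000 counts of the library (CPM). A level of 1 CPM stands for 12.3 to 53.8 counts. A gene seen 3 times stands at 0.245 CPM in the shallowest library and at 0.0558 CPM in the deepest, and several receptors lie close to this limit, which covers counting error only. All 12 markers of hippocampal principal neurons had counts in every library, with a summed level of 1793 to 2160 CPM in dorsal and 1110 to 1571 CPM in ventral libraries. The 5 markers of serotonergic neurons summed to 1.79 to 3.35 CPM in dorsal and 1.32 to 2.32 CPM in ventral libraries, with up to 3 of them at 0 in a library. Among them the serotonin transporter SLC6A4 had 0 to 5 counts and the transcription factor FEV 0 to 4 counts per library, while TPH2, the enzyme that makes serotonin in neurons, had 13 to 79 counts. Because the samples were bulk tissue, fewer cells of a type and less RNA per cell cannot be told apart. Transcript lengths were not used here, so levels are compared between samples and not between genes.

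The first comparison asked whether receptor expression differs between the poles of the hippocampus. HTR1B and HTR3A were lower in dorsal than in ventral tissue over both conditions, and no receptor was higher. They passed an edgeR quasi-likelihood test at a Benjamini-Hochberg adjusted p under 0.05, and HTR1D, the receptor kept through its ventral libraries, makes 3 of 10. Of all tested genes 4.51% passed in either direction, 3.07% lower and 1.44% higher in dorsal tissue. The median log2 fold change of the 10 receptors, dorsal over ventral, was -1.29, HTR1D included, and that of all tested genes was -0.02. Of the receptors, 9 had a negative log2 fold change, HTR1D among them, and 1 a positive one. The errors below are standard errors (SE) for log2 fold changes and SD over 3 libraries for CPM.

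**Figure D1:**
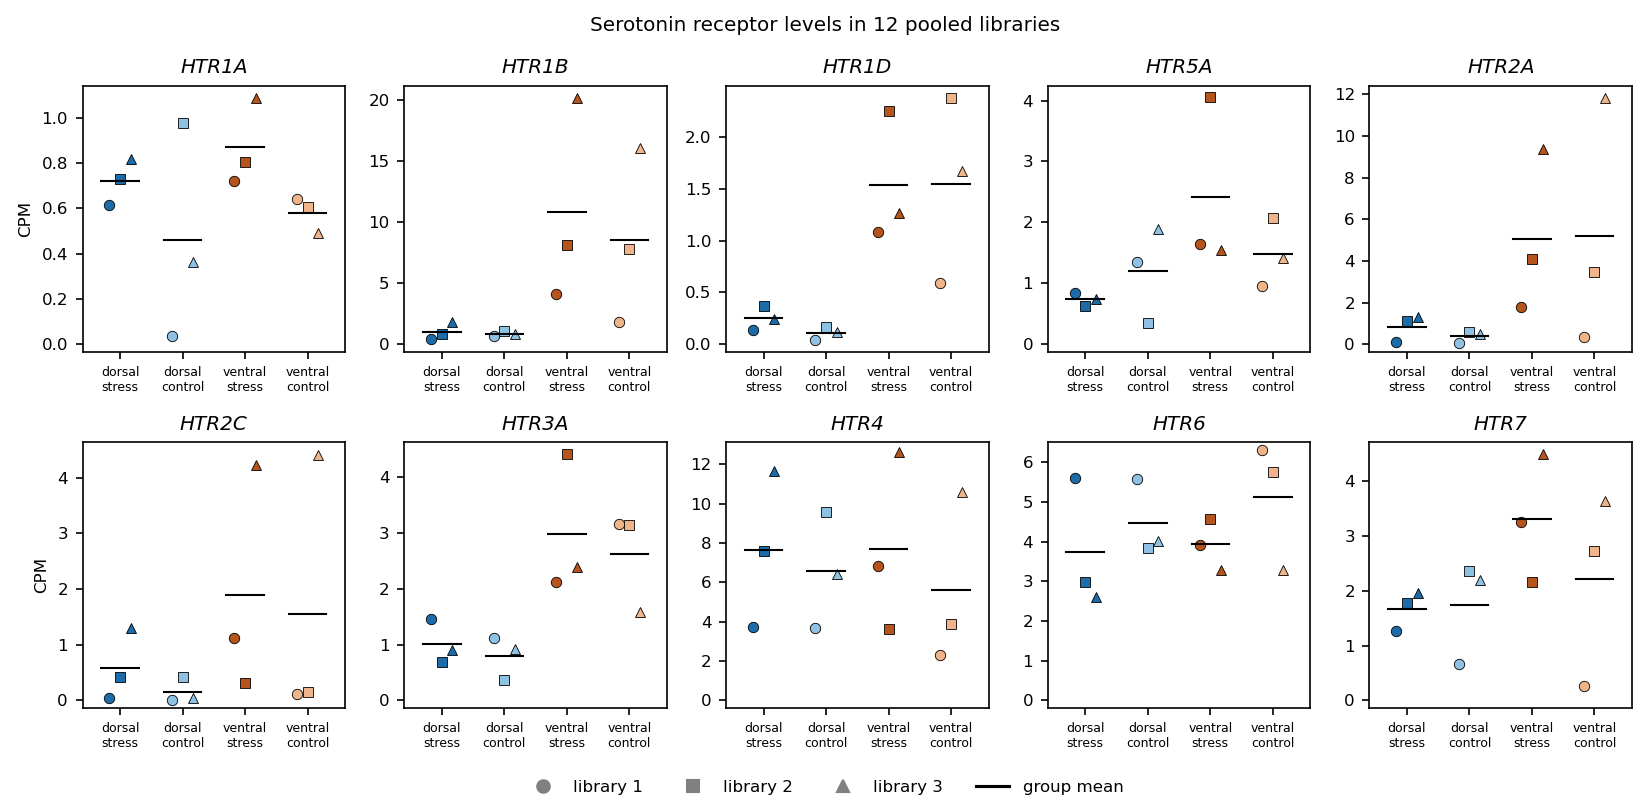
Level of each serotonin receptor in CPM on a linear axis, with 1 point per library, its symbol giving the library number, and a bar at the mean of each group of 3. HTR1D and HTR3A lie lower in all 6 dorsal libraries than in all 6 ventral ones, while HTR4 and HTR6 overlap between all groups.

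Among the receptors coupled to inhibitory G proteins, HTR1B (NCBI GeneID 101111375) sits on axon terminals, where it reduces the release of serotonin and other transmitters. Its level was 0.424, 0.835 and 1.80 CPM in dorsal stress libraries 1 to 3 and 0.632, 1.11 and 0.802 CPM in dorsal control libraries 1 to 3. It was 4.13, 8.15 and 20.2 CPM in ventral stress libraries 1 to 3 and 1.78, 7.83 and 16.1 CPM in ventral control libraries 1 to 3. Within each condition every dorsal library lay below every ventral library. Across conditions the highest dorsal library, stress 3, just overlapped the lowest ventral one, control 1. The log2 fold change over both conditions was -3.37 ± 0.59 (edgeR adjusted p = 0.00984), so that dorsal levels were 10.3-fold lower. HTR1B kept its call without each of the 12 libraries in turn, at a highest adjusted p of 0.0410. Within each ventral group library 1 was lowest and library 3 highest.

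HTR1D (GeneID 101122172), a close relative of HTR1B that also acts on nerve endings, was scarce. It had 3, 7 and 3 counts in dorsal stress and 2, 7 and 3 counts in dorsal control libraries 1 to 3, or 0.141, 0.365 and 0.245 CPM and 0.0372, 0.162 and 0.120 CPM. The ventral libraries held 27, 56 and 42 counts under stress and 27, 47 and 58 counts in control, or 1.08, 2.25 and 1.27 CPM and 0.595, 2.37 and 1.67 CPM. All 6 dorsal libraries lay below all 6 ventral libraries, as they did for HTR3A and for no other receptor. Over all tested genes the libraries of both regions did not overlap in 4.71%, in 2.93% with dorsal lower and in 1.79% with dorsal higher. The log2 fold change of HTR1D was -3.20 ± 0.48 (edgeR adjusted p = 0.00456), a description, since its direction follows from how the gene came to be tested. Without any filter on low counts it was -3.20 ± 0.49 (adjusted p = 0.00437). With 25 counts in all dorsal and 257 in all ventral libraries, the pooled CPM was 9.81-fold lower in dorsal tissue, with an exact 95% binomial interval of 6.50 to 15.4 that covers counting error only. The call held without each library in turn, at a highest adjusted p of 0.0179.

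HTR1A and HTR5A gave no call. HTR1A (GeneID 101105852), the inhibitory receptor on cell bodies and dendrites, stood at 0.612, 0.731 and 0.816 CPM in dorsal stress and 0.0372, 0.974 and 0.361 CPM in dorsal control libraries, against 0.721, 0.803 and 1.09 CPM in ventral stress and 0.639, 0.606 and 0.491 CPM in ventral control libraries. The dorsal control libraries held both the lowest value of the series, from 2 counts, and a value above all but 1 of the ventral libraries. Its log2 fold change was -0.32 ± 0.55 (edgeR adjusted p = 0.99998), with a 95% interval of -1.53 to 0.88. HTR5A (GeneID 101116905) had 0.847, 0.626 and 0.734 CPM in dorsal stress and 1.36, 0.348 and 1.88 CPM in dorsal control libraries, against 1.64, 4.05 and 1.54 CPM in ventral stress and 0.947, 2.07 and 1.41 CPM in ventral control libraries. The regions did not overlap for HTR5A in stressed ewes and overlapped in control ewes. Over both conditions its log2 fold change of -0.98 ± 0.44 had an unadjusted edgeR p of 0.0483 and an adjusted p of 0.357.

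**Figure D2:**
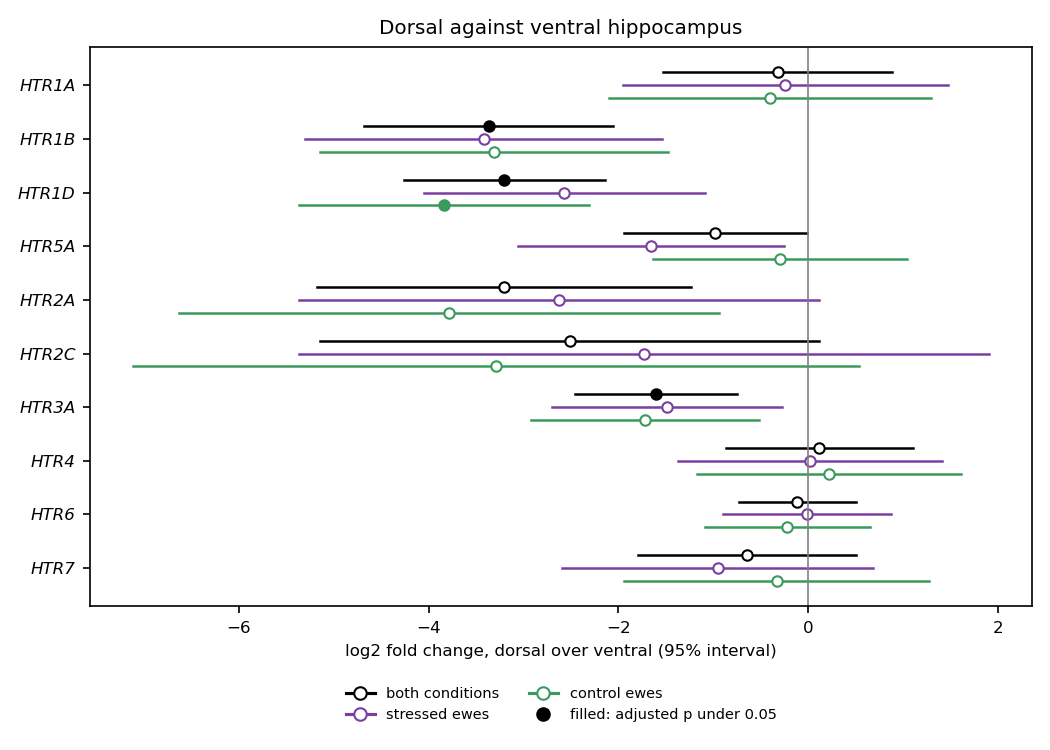
Log2 fold change of each receptor, dorsal over ventral hippocampus, with its 95% interval on the horizontal axis, over both conditions (black), in stressed ewes (purple) and in control ewes (green); filled points passed an adjusted p of 0.05. HTR1B, HTR1D and HTR2A have the lowest values, between -3.37 and -3.20 over both conditions, and HTR2C has the widest intervals.

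Both receptors of the phospholipase C family had low dorsal values, varied widely within groups and did not pass in edgeR with all 12 libraries and no further term in the fit. HTR2A (GeneID 443018), the excitatory receptor known for binding hallucinogens, had 0.0941, 1.10 and 1.31 CPM in dorsal stress and 0.0558, 0.603 and 0.481 CPM in dorsal control libraries 1 to 3. It had 1.76, 4.09 and 9.36 CPM in ventral stress and 0.330, 3.48 and 11.8 CPM in ventral control libraries 1 to 3. Library 1 was the lowest of its group in all 4 groups, and in ventral control it fell within the dorsal range. The log2 fold change was -3.21 ± 0.89, close in size to those of HTR1B and HTR1D, with an edgeR adjusted p of 0.0774 and a 95% interval of -5.18 to -1.23. DESeq2 called HTR2A (adjusted p = 0.00133) among 1558 genes, where edgeR called 803. In edgeR it passed without ventral control 1 (adjusted p = 0.0228), with a choroid plexus score in the fit (0.0157) and with the first residual factor, the leading component of the spread left within groups (0.000206). Over all genes these fits called 1091, 6454 and 3761. The residual factor came from these same libraries and was chosen after seeing the data. HTR2A also passed with the library number as a block (-3.09 ± 0.42, adjusted p = 0.00225) and with the number as a block within each condition (-3.02 ± 0.41, adjusted p = 0.00948). These fits called 1375 and 823 of 17806 tested genes. In all 6 pairs of same-numbered libraries the dorsal one was lower for HTR2A, as it also was for HTR1B, HTR1D and HTR3A. How many of all genes do so was not counted. The labels do not say that the numbers pair the regions, and they were not taken to do so.

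HTR2C (GeneID 101108550) had 0.0471, 0.418 and 1.31 CPM in dorsal stress libraries and 0, 0.418 and 0.0401 CPM in dorsal control libraries, from 0 to 18 counts. It had 1.12, 0.321 and 4.23 CPM in ventral stress libraries and 0.110, 0.152 and 4.42 CPM in ventral control libraries. Most of the ventral signal came from the libraries numbered 3, with 140 counts under stress and 153 in control. The log2 fold change of -2.51 ± 1.19 (edgeR adjusted p = 0.403) became -0.77 without ventral control 3, and -0.06 without both of these libraries. In control ewes alone it was -3.29 ± 1.73 with all libraries, and its sign turned without ventral control 3, to 0.20. HTR2C passed in edgeR with the choroid plexus score in the fit (adjusted p = 0.0209) and with the first residual factor (adjusted p = 0.00915). These fits called 6454 and 3761 of 17806 tested genes, against 803 with neither term. The factor was taken from the spread of these same libraries.

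HTR2C is known in rodents and humans as a receptor of the choroid plexus, the epithelium that makes cerebrospinal fluid, and TTR, the transthyretin gene, is a defining marker of that tissue. The choroid plexus markers summed to 552 to 2917 CPM in dorsal and 312 to 584 CPM in ventral libraries. Of 12 tested, 3 were higher in dorsal tissue, against 1.44% of all tested genes, with a median log2 fold change of 0.44. The part of choroid plexus tissue in the values of HTR2C was not tested. TTR stood at 341, 427 and 941 CPM in dorsal stress libraries 1 to 3, in the same order as HTR2C. It stood at 2650, 657 and 1268 CPM in dorsal control libraries 1 to 3, in the reverse order. Dorsal control 1 had 0 counts of HTR2C, which allows a level of up to 0.0558 CPM. In both ventral groups TTR followed neither the order of HTR2C nor its reverse.

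HTR3A (GeneID 101110536), the channel subunit, was lower in dorsal tissue. It had 1.46, 0.679 and 0.898 CPM in dorsal stress and 1.12, 0.371 and 0.922 CPM in dorsal control libraries, against 2.12, 4.42 and 2.38 CPM in ventral stress and 3.15, 3.13 and 1.59 CPM in ventral control libraries. The highest dorsal library, stress 1, lay below the lowest ventral library, control 3. The log2 fold change was -1.60 ± 0.39 (edgeR adjusted p = 0.0427), so that dorsal levels were 3.04-fold lower. This call was close to the threshold. It held without dorsal stress 1 or ventral control 3 and was lost without each of the other 10 libraries, at adjusted p-values from 0.0514 to 0.122 and log2 fold changes from -1.80 to -1.40. Once the fit held a choroid plexus score the log2 fold change shrank to -0.77 ± 0.60 (adjusted p = 0.319). That fit called 6454 of 17806 tested genes, against 803 without the score. The markers in the score summed to 552 to 2917 CPM in dorsal and 312 to 584 CPM in ventral libraries, so the score itself varied with region. The part of choroid plexus tissue in the values of HTR3A was not tested. HTR3B, the partner subunit, had 0 to 4 counts per library and was not tested.

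The receptors that raise cyclic AMP did not pass. HTR4 (GeneID 101117928), which promotes excitability in rodent hippocampus, had 3.72, 7.62 and 11.7 CPM in dorsal stress and 3.66, 9.56 and 6.45 CPM in dorsal control libraries, against 6.81, 3.61 and 12.6 CPM in ventral stress and 2.31, 3.89 and 10.6 CPM in ventral control libraries. HTR6 (GeneID 101104894), a receptor largely restricted to the brain, had 5.60, 2.98 and 2.61 CPM in dorsal stress and 5.58, 3.83 and 4.01 CPM in dorsal control libraries, against 3.93, 4.58 and 3.29 CPM in ventral stress and 6.32, 5.76 and 3.29 CPM in ventral control libraries. The ranges of all 4 groups overlapped for both. Their log2 fold changes were 0.12 ± 0.45 and -0.11 ± 0.28, with 95% intervals of -0.86 to 1.10 for HTR4 and -0.73 to 0.51 for HTR6, so that a 2-fold higher dorsal level lies inside the interval for HTR4 and outside it for HTR6, and a 2-fold lower one outside both. In that fit with a choroid plexus score, which called 6454 of 17806 tested genes, HTR4 turned to -1.37 ± 0.46 (edgeR adjusted p = 0.0402).

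HTR7 (GeneID 101122994), a receptor also linked to circadian timing, had 1.27, 1.77 and 1.96 CPM in dorsal stress and 0.669, 2.37 and 2.204 CPM in dorsal control libraries, against 3.25, 2.17 and 4.50 CPM in ventral stress and 0.264, 2.73 and 3.64 CPM in ventral control libraries. In stressed ewes every dorsal library lay below every ventral one, and in control ewes the ranges overlapped, with ventral control 1 the lowest of all. Over both conditions the log2 fold change was -0.64 ± 0.52 (edgeR adjusted p = 0.815).

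Taken within 1 condition, fewer receptors passed. In stressed ewes 0 of 10 were called by edgeR, where 0.444% of tested genes were called, 0.359% lower and 0.0842% higher in dorsal tissue. Of the receptors, 4 had an unadjusted edgeR p under 0.05, HTR1D among them, as did 1400 of the 17806 tested genes. DESeq2 called HTR1B and HTR1D among 580 genes, and limma-voom called 29 genes and no receptor. The CPM ranges lay lower in dorsal tissue for HTR1B, HTR2A, HTR3A, HTR5A and HTR7. HTR1D, whose direction follows from how it came to be tested, makes 6 of 10. Over all tested genes 8.79% lay lower, 4.95% higher and 13.7% in either direction. In control ewes none of the other receptors was called, and HTR1D, kept through its ventral libraries, had a log2 fold change of -3.84 ± 0.69 (edgeR adjusted p = 0.0312). Here 1% of tested genes were called, 0.753% lower and 0.247% higher. Of the 10 receptors 4 had an unadjusted edgeR p under 0.05, HTR1D among them, as did 1544 of the 17806 tested genes. DESeq2 called HTR1B, HTR1D, HTR2A and HTR3A in control ewes among 728 genes, and limma-voom called 194 genes and no receptor. The edgeR call of HTR1D in control ewes was lost without each of 9 libraries in turn and held without dorsal stress 1, ventral control 1 or ventral stress 2, with adjusted p-values up to 0.133. The CPM ranges lay lower in control ewes for HTR1B and HTR3A, and HTR1D, with its direction set as above, makes 3 receptors. Over all tested genes 5.59% lay lower, 5.65% higher and 11.2% in either direction. HTR1B had log2 fold changes of -3.42 ± 0.85 under stress and -3.31 ± 0.83 in control, and HTR3A of -1.49 ± 0.55 and -1.72 ± 0.54. The test of the difference between the conditions gave -0.11 ± 1.12 for HTR1B (95% interval -2.58 to 2.36) and 0.23 ± 0.76 for HTR3A (95% interval -1.44 to 1.903), neither of which passed in edgeR (adjusted p = 1.00 for both).

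**Figure D3:**
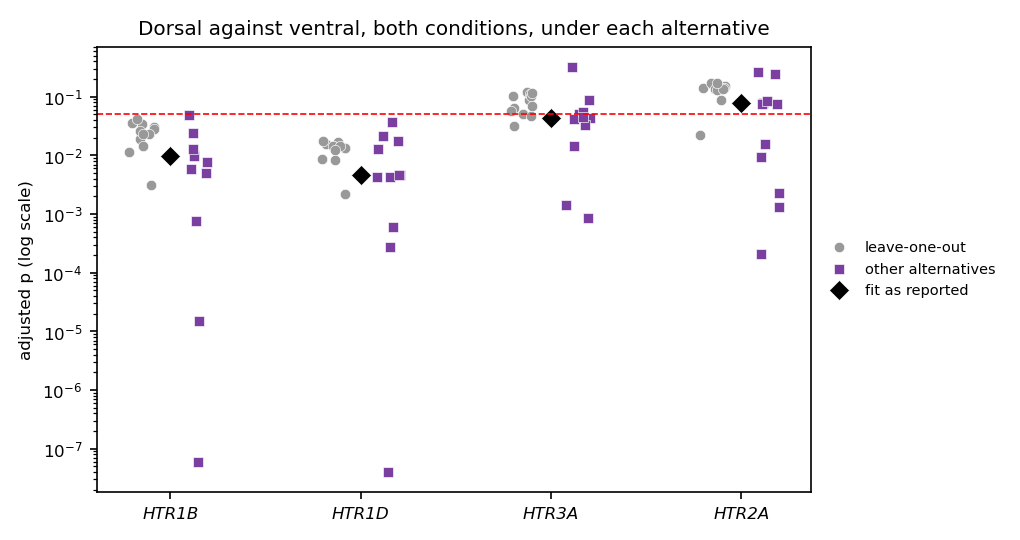
Adjusted p of the difference between dorsal and ventral hippocampus for HTR1B, HTR1D, HTR3A and HTR2A on a log axis, as reported (black), without each library in turn (grey) and under 11 other alternatives (purple), with the dashed line at 0.05. HTR1B and HTR1D stay below the line throughout, at no more than 0.0489 and 0.0372, while HTR3A and HTR2A lie on both sides of it.

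Marker genes of neighbouring tissues and of neuron classes moved with the same comparison, and their part in the receptor differences was not tested. Of all tested genes 3.07% fell and 1.44% rose in dorsal tissue. The thalamus list shares a gene with the subiculum list and another with the inhibitory neuron list, so their counts are not separate. Of 12 hippocampal principal neuron markers 2 rose and 2 fell, with a median log2 fold change of 0.59. Subiculum markers fell in 4 of 7 cases and summed to 45.7 to 133 CPM in dorsal and 152 to 408 CPM in ventral libraries, with no marker at 0. Their highest sums were in ventral stress 3 and ventral control 3, at 366 and 408 CPM, the same libraries in which HTR1B, HTR2A, HTR2C and HTR7 were highest. HTR4 was also highest there among ventral libraries, while HTR1D was highest in ventral control 2 and HTR3A in ventral stress 2. Both libraries numbered 3 also stood highest on the first principal component of all tested genes, described below. Striatal markers fell in 3 of 8 cases, among them DRD1 and PENK, with sums of 103 to 152 CPM in dorsal and 139 to 179 CPM in ventral libraries. Thalamic markers fell in 2 of 6, with sums of 84.9 to 169 against 187 to 494 CPM, and neocortical markers in 1 of 7, with sums of 88.5 to 114 against 100.4 to 164 CPM. For inhibitory neurons, in which rodent HTR3A is found, 4 of 12 tested markers fell and 1 rose, and sums were 672 to 789 CPM in dorsal against 800 to 1111 CPM in ventral libraries. SST, their somatostatin marker, was listed at 0 in all libraries. Meningeal fibroblast markers fell in 5 of 7, with sums of 142 to 259 against 316 to 655 CPM. Of 8 oligodendrocyte markers 1 rose, with sums of 6307 to 11147 CPM in dorsal against 3884 to 7674 CPM in ventral libraries. None of 7 astrocyte and 6 tested microglial markers passed in edgeR. The median log2 fold changes were -1.95 for subiculum, -1.27 for meningeal fibroblast, -0.76 for neocortex, -0.75 for inhibitory neuron, -0.74 for thalamus, -0.14 for striatum and 0.72 for oligodendrocyte markers. At most 1 marker was at 0 in a library, in the choroid plexus, neocortex and inhibitory neuron lists.

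Of 55 tested genes around the receptors, 4 passed between the regions, with a median log2 fold change of -0.04. Of all tested genes 4.51% passed, 1.44% higher and 3.07% lower in dorsal tissue. Of 8 tested genes of serotonin synthesis, transport and breakdown, 2 rose in dorsal tissue and 0 fell. These were SLC18A1, a vesicular monoamine transporter (2.63 ± 0.45, edgeR adjusted p = 0.00861), and SLC29A4, a low-affinity monoamine transporter of the plasma membrane (0.91 ± 0.20, adjusted p = 0.0296). SLC18A1 had 3 to 9 counts in each ventral library and reached the level for testing through its dorsal libraries. Its direction follows from this, so its call is a description, as for HTR1D. SLC18A1 averaged 1.19 ± 0.401 and 1.78 ± 0.885 CPM in dorsal stress and dorsal control against 0.254 ± 0.0227 and 0.230 ± 0.161 CPM in ventral stress and ventral control (SD, n = 3 each). TPH2 averaged 1.903 ± 0.467 and 1.55 ± 0.397 CPM in the dorsal groups and 0.807 ± 0.336 and 0.954 ± 0.258 CPM in the ventral groups, for a log2 fold change of 0.95 ± 0.30 that did not pass (adjusted p = 0.117).

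Of the genes through which the receptors signal, 0 of 10 tested inhibitory G protein effectors and 0 of 9 phospholipase C effectors passed. The lowest p among them was that of KCNJ5, a subunit of the potassium channels opened by inhibitory G proteins (-2.37 ± 0.69, edgeR adjusted p = 0.0894). Of 15 genes of stimulatory G protein and cyclic AMP signalling, 1 rose, the adenylyl cyclase ADCY1 (0.73 ± 0.18, adjusted p = 0.0442), where 1.44% of all tested genes rose. ADCY1 lost its call with no filter (adjusted p = 0.0543) and with the choroid plexus score in the fit (0.32 ± 0.24, adjusted p = 0.291). The fit with the score called 6454 of 17806 tested genes. Of 10 receptor partners 1 rose, ADARB1, an RNA editing enzyme that acts on HTR2C transcripts (0.70 ± 0.16, adjusted p = 0.0319). Without each library in turn, SLC29A4 lost its call in 9 of 12 cases, ADCY1 in 10 and ADARB1 in 11 (highest adjusted p = 0.0845, 0.127 and 0.0943). SLC18A1, tested through its dorsal libraries, kept its call in all 12. The median log2 fold changes were 0.21 for synthesis, transport and breakdown, 0.01 for both the inhibitory G protein and the phospholipase C effectors, -0.14 for the cyclic AMP genes and -0.03 for the partners. The other receptor genes HTR1E (-0.14 ± 0.24), HTR1F (-0.70 ± 0.27) and HTR2B (0.32 ± 0.33) did not pass, with a smallest adjusted p of 0.227.

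The second comparison asked whether chronic stress changed receptor levels, and no receptor passed in either region. Of 10 receptors 0 were called in dorsal and 0 in ventral tissue by edgeR, 0 had an unadjusted p under 0.05, and DESeq2 and limma-voom called 0. Over all tested genes 0% were called in each region by edgeR, with 152 genes at an unadjusted p under 0.05 in dorsal and 142 in ventral tissue, and DESeq2 called 1 gene in each. The log2 fold changes of the receptors, stress over control, lay between -0.68 and 1.85 in dorsal tissue with a median of 0.29, and between -0.45 and 0.68 in ventral tissue with a median of 0.31. The medians over all tested genes were 0.01 and -0.03. Of the 55 genes around the receptors 0 were called in either region by edgeR, with 1 at an unadjusted p under 0.05 in dorsal and 0 in ventral tissue. In dorsal tissue the library totals of both conditions did not overlap, with those of stress lower.

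**Figure D4:**
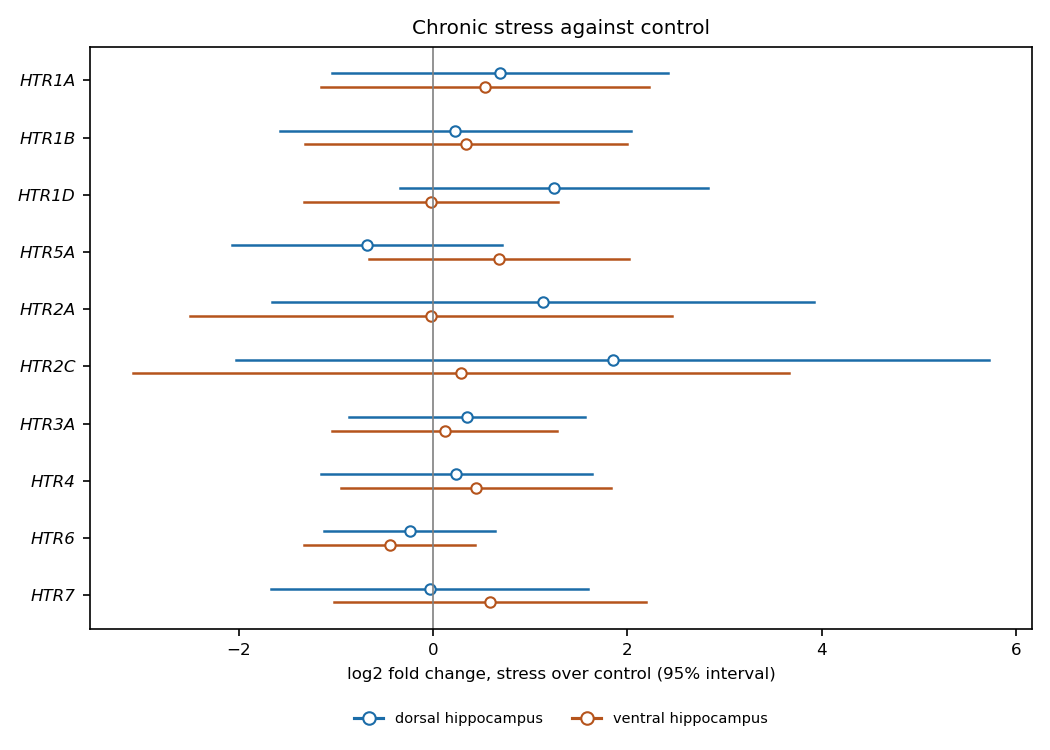
Log2 fold change of each receptor, stress over control, with its 95% interval on the horizontal axis, in dorsal (blue) and ventral (orange) hippocampus. Every interval includes 0, and they are narrowest for HTR6 and widest for HTR2C.

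HTR1A in ventral tissue was the receptor whose groups did not overlap between conditions. Its ventral stress libraries, at 0.721, 0.803 and 1.09 CPM, all lay above the ventral control libraries, at 0.639, 0.606 and 0.491 CPM. Over all tested genes 2.71% did not overlap in this comparison, 1.59% with stress higher and 1.12% with stress lower. In dorsal tissue no receptor was without overlap, against 5.12% of tested genes, 1.92% with stress higher and 3.2% with stress lower. The ventral difference rests on 18 to 36 counts per stress library and 12 to 29 per control library. The log2 fold change was 0.53 ± 0.76 with a 95% interval of -1.16 to 2.22 (edgeR adjusted p = 0.9998), and it did not pass.

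The narrowest intervals were those of HTR6, from -1.12 to 0.64 for stress in dorsal and from -1.32 to 0.43 in ventral tissue. For HTR1B they ran from -1.58 to 2.04 and from -1.32 to 1.99, and for HTR2C from -2.03 to 5.73 and from -3.09 to 3.66. The smallest unadjusted edgeR p was 0.110 in dorsal tissue, that of HTR1D with a log2 fold change of 1.25 ± 0.72, and 0.283 in ventral tissue, that of HTR6 with -0.45 ± 0.40. A 2-fold higher level under stress lay inside the interval of 8 of 10 receptors in dorsal tissue, all but HTR5A and HTR6, and of 9 of 10 in ventral tissue, all but HTR6. A 2-fold lower level lay inside the interval of all but HTR1D and HTR3A in dorsal and all but HTR4 and HTR5A in ventral tissue.

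Averaged over both regions, 0 of 10 receptors passed, with a smallest unadjusted edgeR p of 0.209, and 0% of all tested genes did. For the difference of the stress effects between regions, 0 of 10 receptors passed and 0% of tested genes. HTR5A had the smallest p there, with a stress effect of -0.68 ± 0.63 in dorsal and 0.68 ± 0.60 in ventral tissue and a difference of -1.36 ± 0.87 (unadjusted p = 0.149, edgeR adjusted p = 0.99997). DESeq2 and limma-voom called 0 receptors in both comparisons.

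Much of the variation of the receptors lay between libraries of the same group. Differences within groups made up 90.4% of the variance of log2 CPM for HTR4, 81.2% for HTR6 and 80.4% for HTR7, against 12.4% for HTR1D, 25.0% for HTR1B and 30.5% for HTR3A. The first principal component of all tested genes, which held 50.04% of the variance, ordered the libraries within groups. In all 4 groups the 3 libraries stood in the same order for HTR2C, HTR4 and HTR7 as on this component, and in the reverse order for HTR6. For HTR4 the lowest and highest libraries of the groups were 3.72 and 11.7 CPM in dorsal stress, 3.66 and 9.56 CPM in dorsal control, 3.61 and 12.6 CPM in ventral stress and 2.31 and 10.6 CPM in ventral control. Such an order in all 4 groups, in either direction, was found for 4 of 10 receptors and 25.4% of all tested genes, 13.7% in the same and 11.7% in the reverse order, and the receptors are themselves part of the component. Library totals followed the component in ventral stress, ran against it in dorsal stress and did neither in both control groups. What this axis reflects was not tested.

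**Figure D5:**
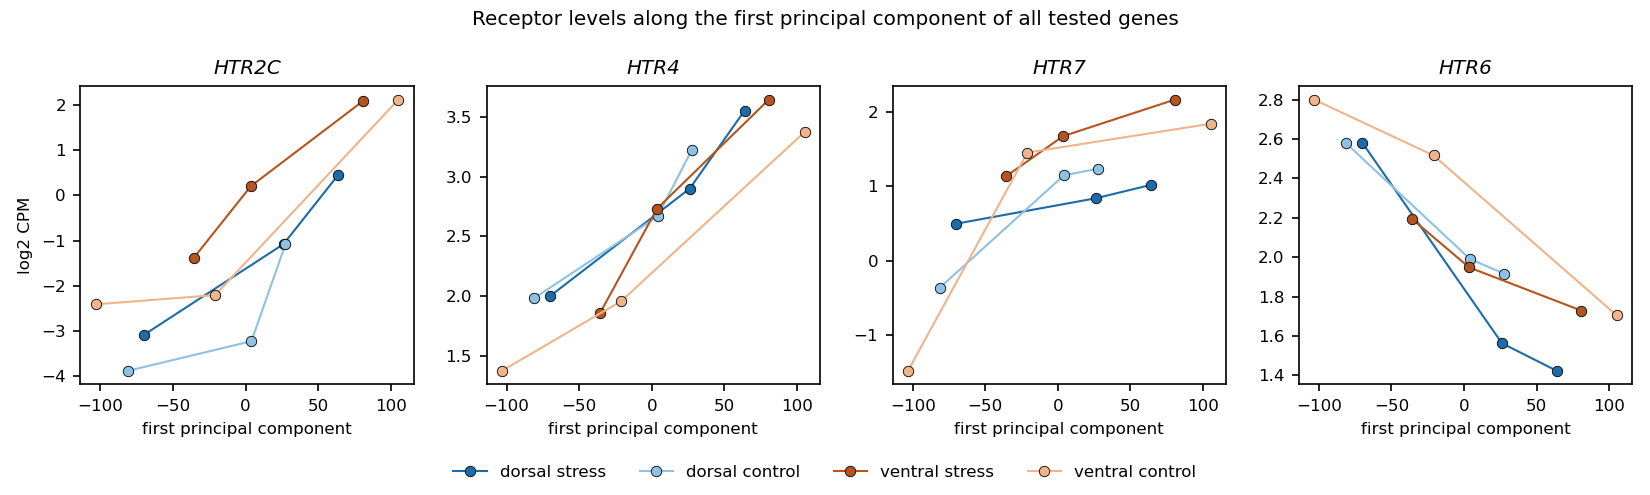
Log2 CPM of HTR2C, HTR4, HTR7 and HTR6 against the first principal component of all tested genes, with the 3 libraries of each group joined by a line. The lines climb for HTR2C, HTR4 and HTR7 in all 4 groups and descend for HTR6.

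The genes whose log2 CPM was most like that of a called receptor over the 12 libraries were named by their Pearson correlation, as a description of libraries that share region, ewes and the axis above. For HTR1B they were GDA, GABRA3 and CADM1, with r between 0.986 and 0.987 among 12593 named genes. For HTR1D they were NRSN1, MN1 and SOCS2, with r between 0.972 and 0.976. For HTR3A they included PNOC, with r of 0.982, and KLHDC8A, with r of 0.964.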

How the data were processed

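Whole gene counts for 12 libraries were deposited by the authors in 1 table, and columns were matched to samples through the sample descriptions. Per the labels' protocols RNA was extracted with TriReagent and libraries were made with a stranded kit for polyadenylated RNA. The submitters' processing notes list featureCounts 2.0.0, SAMtools 1.9, TopHat2 2.1.1 with Bowtie2 2.3.5.1, and FastQC and bcl2fastq 2.20. Build, annotation and strand setting were not given in the sources used here, so positions are not printed and antisense reads cannot be told apart.

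A RefSeq gene table (assembly ARS-UI_Ramb_v3.0) gave symbols, and nothing else, to 412 genes with placeholder names. The members and lists were chosen with earlier results of these data known. The fit used edgeR 4.0.16 in R 4.3.3 (filterByExpr by group, TMM, robust quasi-likelihood fit, 1 mean per group), tested on simulated data, with Benjamini-Hochberg adjustment over 17806 genes. Each SE is the size of the log2 fold change over the root of F, and 95% intervals use the t quantile of the gene's degrees of freedom. CPM were divided by library totals, and log2 CPM used TMM and a prior count of 2. Same-numbered libraries of stressed and control ewes, which are different animals, deviated together within each region (correlations of 0.241 to 0.787 in 6 of 6 pairs). Only 8 of 12 libraries correlated best with their own number there, so the number may act as a pairing in the stress comparisons, which was not settled. The labels do not say that pools with the same number hold the same ewes, so p-values measure the spread between pools. Alternatives were RLE factors, no filter, 1 CPM in 3 libraries, DESeq2 1.42.0, limma-voom 3.58.1, 2 replicate blocks, thinned counts, a choroid plexus score (mean log2 CPM of its tested markers) and leaving out each library. Leaving out both ventral libraries numbered 3 and adding the first residual factor (the leading component of the residuals) as a covariate were chosen after seeing the data. All 10 receptors are named. Of other lists, up to 4 genes by smallest p were eligible, with TPH2, SLC6A4, FEV, TTR, DRD1 and PENK, and for each called receptor the 3 genes with the highest correlation and a mean log2 CPM of at least 1. SLC18A2, TPH1, HTR3B and SST were named after their values were seen. No sequence is printed. Some genes that the naming rule selects are not reported here.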

Additional observations from a re-analysis of the deposited data

How the results depend on the processing

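Between regions the replicate numbers were not taken to pair the samples, since deviations of same-numbered dorsal and ventral libraries correlated over 0.1 in 4 of 6 pairs (-0.233 to 0.761) and 6 of 12 libraries correlated best with their own number. Between conditions all 6 same-numbered pairs correlated over 0.1, and 8 of 12 libraries correlated best with their own number. The block left the stress comparisons at 0 calls. With the replicate block 4 receptors were called between regions over both conditions, HTR2A added (adjusted p = 0.00225), and with the block within condition 3, in which HTR3A was lost (0.0898) and HTR2A added (0.00948). Called receptors numbered 5 over both conditions with the choroid plexus score and 5 with the first residual factor. In control ewes they numbered 4 with DESeq2, the choroid plexus score and the first residual factor, 3 with the replicate block, 0 with limma-voom, thinned counts and the ventral libraries numbered 3 left out, and 0 to 2 without 1 library. In stressed ewes they numbered 2 with DESeq2, 3 with the replicate block, 1 with the choroid plexus score and 4 with the first residual factor. HTR3A was also lost over both conditions with no filter (0.0501) and limma-voom (0.0555), HTR1D in control ewes with limma-voom (0.0626) and thinned counts (0.181).

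Over all genes, 803 calls between regions became 1558 with DESeq2, 1375 with the replicate block, 6454 with the choroid plexus score and 3761 with the first residual factor. In control ewes 178 became 728, 440, 5550 and 2003 in that order, and 91 with the ventral libraries numbered 3 left out. In stressed ewes 79 became 580, 314, 292 and 1589 in that order, 35 with those libraries left out and 29 with limma-voom. Without 1 library the counts were 420 to 1091, 2 to 319 and 1 to 159. Stress over both regions gave 14 genes with DESeq2 and 409 with the first residual factor, and 0 receptors.

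Log2 fold changes of receptors that turned in sign, none of them called as reported, were as follows. The cause was not tested. With the choroid plexus score these were HTR4 -1.37 and HTR6 0.80 for region over both conditions, HTR4 -0.97 and HTR6 0.49 for region in stressed ewes, and HTR4 -1.76 and HTR6 1.10 for region in control ewes. For stress they were HTR3A -0.26 and HTR7 0.91 in dorsal tissue, HTR1D 0.011 and HTR2A 0.37 in ventral tissue, HTR3A -0.030 and HTR5A -0.074 over both regions. For the difference of stress effects they were HTR1B 0.84, HTR3A -0.45, HTR4 0.79, HTR6 -0.61 and HTR7 0.26. Limma-voom gave HTR7 0.21 for region in control ewes, HTR4 -0.014 for region under stress, HTR7 0.19 for stress in dorsal tissue, HTR1D 0.19 and HTR2A 0.87 for stress in ventral tissue. The replicate block gave HTR4 -0.028 for region under stress, HTR1B -0.073 and HTR7 0.12 for dorsal stress, HTR1D 0.075 and HTR2A 0.61 for ventral stress, HTR5A -0.0044 for stress over both regions and HTR2C -0.068 for the difference. The block within condition gave HTR7 0.043 for region in control ewes. Leaving out the ventral libraries numbered 3 gave HTR2C 0.20 and HTR7 0.24 for region in control ewes, HTR1D 0.15, HTR2A 0.62 and HTR3A -0.026 for ventral stress and HTR2C -0.51 for the difference. The first residual factor gave HTR7 0.13 for dorsal stress, HTR1D 0.072 and HTR2A 0.78 for ventral stress and HTR5A -0.026 for stress over both regions. Thinned counts gave HTR1B -0.14 and HTR7 0.15 for dorsal stress, HTR5A -0.014 for stress over both regions and HTR1A -0.049 for the difference. RLE factors gave HTR6 0.0019 and DESeq2 HTR6 0.0072 for region under stress, and no filter gave HTR1D 0.0036 for ventral stress.

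Without 1 library, the ranges that crossed 0 were, for region over both conditions, HTR4 -0.10 to 0.53 and HTR6 -0.35 to 0.013. In control ewes they were HTR1A -1.67 to 0.16, HTR2C -6.35 to 0.20, HTR4 -0.13 to 1.04, HTR5A -0.71 to 0.15, HTR6 -0.48 to 0.035 and HTR7 -0.86 to 0.24, and in stressed ewes HTR4 -0.41 to 0.59 and HTR6 -0.48 to 0.19. For dorsal stress they were HTR1B -0.42 to 0.60, HTR3A -0.073 to 0.74, HTR4 -0.19 to 0.59, HTR6 -0.71 to 0.0040 and HTR7 -0.41 to 0.24. For ventral stress they were HTR1B -0.49 to 1.16, HTR1D -0.41 to 0.40, HTR2A -0.83 to 1.43, HTR2C -1.12 to 3.78, HTR3A -0.28 to 0.35 and HTR4 -0.13 to 1.26. For stress over both regions they were HTR1B -0.13 to 0.69 and HTR5A -0.30 to 0.22, and for the difference HTR1A -0.40 to 1.42, HTR1B -0.94 to 0.72, HTR2A -0.30 to 1.96, HTR2C -1.94 to 4.62, HTR3A -0.20 to 0.63, HTR4 -1.02 to 0.37 and HTR6 -0.27 to 0.47. The receptors with the fewest counts in dorsal tissue were HTR1D and HTR2C, with at most 7 and 18 per library. These counts did not follow depth. The deepest library, dorsal control 1, held 2 and 0, and the shallowest, dorsal stress 3, held 3 and 16.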

Other observations

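Some genes of serotonin handling had too few counts for a test. SLC18A2, the vesicular monoamine transporter of neurons, had 0 counts in all 3 dorsal stress libraries and 0, 3 and 0 counts in dorsal control libraries 1 to 3. It had 5, 1 and 17 counts in ventral stress libraries 1 to 3 and 0, 5 and 25 counts in ventral control libraries 1 to 3. The ventral libraries numbered 3 were thus highest, as they were for HTR1B, HTR2A, HTR2C and HTR7. TPH1, the serotonin-making enzyme outside neurons, had 0 to 4 counts in dorsal and 0 to 7 counts in ventral libraries.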
